A study of Sus scrofa domesticus with 11 samples.

Results

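Desaturases and elongases set the chain length and the number of double bonds of the fatty acids a liver makes. The 7 genes described here are SCD, FADS1, FADS2, ELOVL1, ELOVL2, ELOVL5 and ELOVL6, found by symbol among the 22029 genes of the deposited liver RNA-seq table. Each symbol had 1 row. The livers came from Yorkshire piglets born preterm and fed by vein (parenteral nutrition), taken at day of life 15. One group of 5 libraries received SEFA-6179, a compound known by its code name, at 48 mg/kg, and the other of 6 libraries received MCT, the vehicle control (medium-chain triglyceride oil), at an equal volume of 3 ml/kg. Preterm birth, parenteral nutrition and the day of sampling were shared by both groups. The labels state no sex, litter or batch.

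All 7 enzymes sit in the membrane of the endoplasmic reticulum. In the polyunsaturated branch, FADS2 (delta-6 desaturase) and FADS1 (delta-5 desaturase) add double bonds to the dietary essential fatty acids linoleic and alpha-linolenic acid, and ELOVL5 and ELOVL2 lengthen the products, which yields arachidonic acid and the precursors of docosahexaenoic acid (DHA). In the saturated and monounsaturated branch, ELOVL6 lengthens the palmitate made by fatty acid synthase to stearate, SCD (stearoyl-CoA desaturase) turns saturated chains into palmitoleate and oleate, and ELOVL1 makes very long saturated and monounsaturated chains for sphingolipids. The transcription factor SREBP-1, encoded by SREBF1, is known to activate genes of both branches in liver, and dietary polyunsaturated fatty acids are known to restrain it.

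In the coordinates of the deposited table (genome build not given in the sources used here) FADS2 (ENSSSCG00000013072) lay on chromosome 2 from 9629422 to 9666676 on the minus strand. FADS1 (ENSSSCG00000024015) lay on the same chromosome from 9735293 to 9749671 on the plus strand, so the pair pointed away from each other with 68617 bp between them. FADS3, the remaining gene of this cluster, ended 2105 bp from FADS2. ELOVL2 (ENSSSCG00000001045; 7651600 to 7774018) and ELOVL5 (ENSSSCG00000024149; 46860780 to 47043818) lay on chromosome 7. SCD (ENSSSCG00000010554) lay on chromosome 14 from 111461560 to 111478031. ELOVL6 (ENSSSCG00000036236) lay on chromosome 8 from 111750960 to 112191274, and ELOVL1 (ENSSSCG00000035238) on chromosome 6 from 167881352 to 167886124. SCD, FADS1, FADS2 and ELOVL2 overlapped no other gene of the table. ELOVL6 overlapped 2 genes on the opposite strand with mean counts of up to 723.9, ELOVL5 overlapped 1 with a mean count of 11.8, and ELOVL1 overlapped MED8 on its own strand (mean count 1536.2). Whether counting used strand is not stated, so reads in the overlaps of ELOVL6 and ELOVL5 cannot be assigned with certainty. For ELOVL1 and MED8, which share a strand, this holds with or without the use of strand.

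Total counts were 16821201 to 19215097 per SEFA-6179 library and 15974977 to 23416071 per MCT library. The lowest count of any of the 7 genes in any library was 507, for ELOVL1, so counting error was small beside the differences between animals. The 7 genes together took 0.0493% to 0.485% of a SEFA-6179 library and 0.140% to 0.386% of an MCT library. All 8 hepatocyte markers were present, and their summed level ran from 76601 to 200300 CPM (read counts scaled to library size) with SEFA-6179 and from 73179 to 195177 CPM with MCT. Replicate 3 was the lowest of its group for both treatments. MCT replicate 5 and SEFA-6179 replicate 4, which earlier results of these data had set apart, had the lowest summed macrophage markers of their groups (64.9 and 19.6 CPM). With both left out 0 of the 7 genes passed, as with all libraries.

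Compared per gene length, in the deposited FPKM (fragments scaled to gene length and library size), the desaturases had the highest group means of the 7. For SCD this held for the means only. It lay above ELOVL6 in 6 of 11 libraries, and its SEFA-6179 median was 38.6 FPKM against 57.5 FPKM for ELOVL6. In MCT livers the level of FADS1 was 118 ± 71.2 FPKM (SD, n = 6), that of FADS2 89.0 ± 44.7 FPKM and that of SCD 84.2 ± 88.2 FPKM. ELOVL6 followed at 45.5 ± 16.6 FPKM, ELOVL2 at 38.7 ± 15.0 FPKM, ELOVL5 at 36.6 ± 8.995 FPKM and ELOVL1 at 11.7 ± 2.42 FPKM. Each neighbouring pair in this order overlapped within its spread except ELOVL1, which lay below ELOVL5 in 11 of 11 libraries. With SEFA-6179 the order differed in ELOVL5 (33.7 ± 9.43 FPKM; n = 5) and ELOVL2 (26.4 ± 10.3 FPKM) changing places. ELOVL5 lay above ELOVL2 in 5 of 5 SEFA-6179 libraries and in 2 of 6 MCT libraries. FADS1 lay above FADS2 in 10 of 11 libraries, the exception being MCT replicate 3, where ELOVL2 was the highest of the 7. SCD was the highest of the 7 in MCT replicate 5 and the lowest in MCT replicate 3 and SEFA-6179 replicate 2. FADS3, the neighbour of FADS2, was at 0.0395 to 1.23 FPKM.

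None of the 7 genes differed between SEFA-6179 and MCT livers beyond the spread between animals. Counts were scaled by TMM (trimmed mean of M values) and tested by quasi-likelihood in edgeR, and p-values were adjusted by Benjamini-Hochberg over all 13671 tested genes. By this test 0 of 7 passed an adjusted p of 0.05, where 0.219% of all tested genes passed. At an unadjusted p below 0.05 the count was also 0 of 7, against 10.8% of all tested genes. DESeq2 called 0 of 7 (2.06% of all its tested genes), limma with library weights called 0 of 7 (0.454%), and the authors' deposited table held an adjusted p below 0.05 for 0 of 7 (1.16% of its genes). The groups overlapped for every one of the 7, whereas they did not overlap for 1.49% of tested genes. Of the 7 log2 fold changes 4 were above 0, with a median of 0.091, and over all tested genes 49.8% were above 0, with a median of -0.0015. Whether libraries came from separate litters is not stated, so these p-values measure the spread between these libraries.

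**Figure D1:**
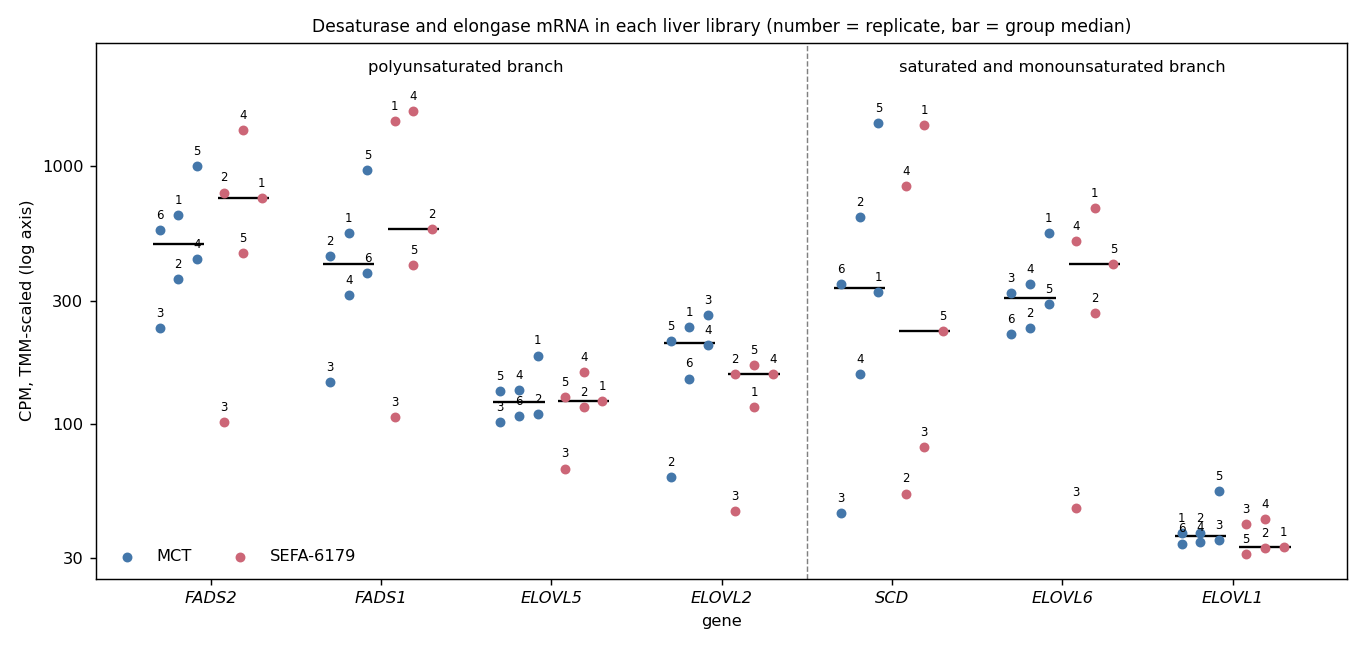
Level of each gene in every library, in TMM-scaled CPM on a log axis, with MCT in blue, SEFA-6179 in red, replicate numbers above the points and a bar at each group median. The groups overlap for all 7 genes, and SCD spans 44.8 to 1465 CPM.

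**Figure D2:**
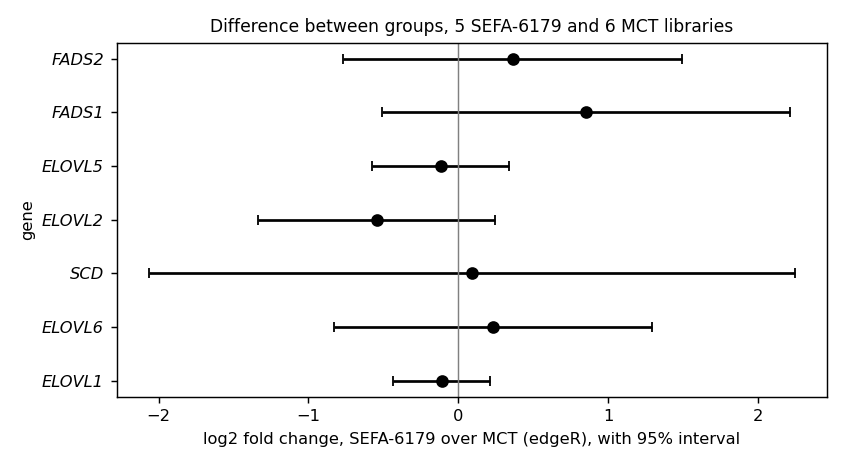
Log2 fold change of SEFA-6179 over MCT for each gene by edgeR (point) with its 95% interval (bar), 5 against 6 libraries. Every interval includes 0, and that of SCD, from -2.07 to 2.25, is the widest of the 7.

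FADS2 carries out the first desaturation of the essential fatty acids. Its levels with SEFA-6179 were 746, 786, 102, 1374 and 459 CPM in replicates 1 to 5. With MCT they ran from 234 CPM in replicate 3 over a median of 499 CPM to 998 CPM in replicate 5. Replicate 3 was the lowest library in both groups, and replicate 4 with SEFA-6179 was above all MCT libraries. The log2 fold change was 0.36 ± 0.52 (SE) with a 95% interval from -0.77 to 1.49 (edgeR adjusted p = 0.854). It turned to -0.038 without SEFA-6179 replicate 4, and rose to 0.64 without SEFA-6179 replicate 3 and to 0.63 without MCT replicate 5.

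FADS1, the delta-5 desaturase, makes arachidonic and eicosapentaenoic acid. With SEFA-6179 it was at 1489, 568.2, 106, 1632 and 413 CPM in replicates 1 to 5, and with MCT it ran from 145 CPM in replicate 3 over a median of 414 CPM to 962 CPM in replicate 5. SEFA-6179 replicates 1 and 4 lay above every MCT library and SEFA-6179 replicate 3 below every one. The mean was 842 ± 679 CPM (SD, n = 5) against 465.9 ± 278 CPM (SD, n = 6). The log2 fold change of 0.85 ± 0.62 (SE) had an interval from -0.51 to 2.21 and did not pass (edgeR adjusted p = 0.670). A difference of up to 4.64-fold in favour of SEFA-6179 lay inside that interval. The log2 fold change was smaller, at 0.47, without SEFA-6179 replicate 4 and at 0.54 without SEFA-6179 replicate 1. Without SEFA-6179 replicate 3 it was larger, at 1.14 (edgeR unadjusted p = 0.0426, adjusted p = 0.427), as it was without MCT replicate 5, at 1.196. With all libraries the difference of the mean log2 CPM was 0.51.

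ELOVL5 lengthens the products of FADS2. Its levels with SEFA-6179 were 123, 116, 66.9, 159 and 126 CPM in replicates 1 to 5, against 101 to 183 CPM with a median of 121 CPM with MCT. Apart from replicate 3 the SEFA-6179 libraries, at 116 to 159 CPM, lay within the MCT range. The log2 fold change was -0.12 ± 0.21 (SE), with an interval from -0.57 to 0.34 (edgeR adjusted p = 0.884), and it turned to 0.031 without SEFA-6179 replicate 3 and to 0.014 without MCT replicate 1.

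ELOVL2 acts on longer chains on the way to DHA. With SEFA-6179 it was at 116, 155, 45.9, 155 and 169 CPM in replicates 1 to 5. With MCT it ran from 61.9 CPM in replicate 2 over a median of 205 CPM to 264 CPM in replicate 3. Here 3 of 5 SEFA-6179 libraries lay between 155 and 169 CPM, and all 5 lay below the MCT median. The means were 128 ± 50.2 CPM (SD, n = 5) and 187 ± 72.3 CPM (SD, n = 6), and the log2 fold change, -0.55 ± 0.37 (SE), had an interval from -1.34 to 0.25 (edgeR adjusted p = 0.633). The lowest p of the 7 was that of ELOVL2, 0.161 unadjusted by edgeR. Without SEFA-6179 replicate 3 its log2 fold change was -0.33. Without MCT replicate 2 it was -0.73 (edgeR unadjusted p = 0.0299, adjusted p = 0.462).

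SCD makes oleate and palmitoleate and is a classical marker of hepatic lipogenesis. Its levels with SEFA-6179 were 1442, 53.5, 81.3, 832 and 228 CPM in replicates 1 to 5. With MCT it ran from 44.8 CPM in replicate 3 over a median of 336 CPM to 1465 CPM in replicate 5. Both groups held very low and very high libraries, a 27.0-fold range with SEFA-6179 and a 32.7-fold range with MCT. The log2 fold change was 0.091 ± 0.97 (SE), with an interval from -2.07 to 2.25 (edgeR adjusted p = 0.986), so differences from 0.239-fold to 4.75-fold were inside it. The direction was not stable: leaving out any single one of 5 libraries (SEFA-6179 replicates 1 and 4, MCT replicates 1, 3 and 4) turned it, to between -0.0058 and -0.73, and the difference of the mean log2 CPM was -0.21.

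ELOVL6 supplies stearate to SCD. With SEFA-6179 it was at 683, 267, 47.2, 512 and 414.5 CPM in replicates 1 to 5, against 223 to 547 CPM with a median of 307 CPM with MCT. SEFA-6179 replicate 3 alone lay below all MCT libraries. The log2 fold change was 0.23 ± 0.49 (SE), with an interval from -0.83 to 1.29 (edgeR adjusted p = 0.901). It turned to -0.085 without SEFA-6179 replicate 1 and rose to 0.52 without SEFA-6179 replicate 3. With all libraries the difference of the mean log2 CPM was -0.14.

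ELOVL1 was the steadiest of the 7. With SEFA-6179 it was at 33.2, 33.0, 40.8, 42.7 and 31.2 CPM in replicates 1 to 5, and with MCT at 34.2 to 54.9 CPM with a median of 36.5 CPM. The top MCT value was that of replicate 5, while the other MCT libraries lay between 34.2 and 37.7 CPM. The log2 fold change was -0.11 ± 0.15 (SE), with an interval from -0.44 to 0.21 (edgeR adjusted p = 0.842), and it was 0.0080 without MCT replicate 5. For ELOVL1 the interval held no difference above 1.16-fold or below 0.739-fold.

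The desaturases and ELOVL6 were among the most variable genes of these livers. The within-group SD of log2 CPM was 1.88 for SCD, which ranked 23 among the 7763 genes with a mean of at least 10 CPM, whose median SD was 0.292. It was 1.26 for FADS1, 1.09 for FADS2 and 1.08 for ELOVL6, larger than in 99.0%, 98.4% and 98.3% of those genes. ELOVL2 (0.772) exceeded 95.6% of them and ELOVL5 (0.389) 72.5%, whereas ELOVL1 (0.233) exceeded 29.8%. These ranks describe the 11 libraries and carry no test.

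Part of this spread came from SEFA-6179 replicate 3, which held the lowest value of all 11 libraries for FADS1, FADS2, ELOVL2, ELOVL5 and ELOVL6. Without it the SD of log2 CPM in the SEFA-6179 group dropped from 1.53 to 0.570 for ELOVL6, from 1.43 to 0.647 for FADS2, from 1.60 to 0.993 for FADS1 and from 0.780 to 0.240 for ELOVL2. The corresponding SDs with MCT were 0.469, 0.721, 0.904 and 0.766. For SCD the SD with SEFA-6179 was 2.06 with this library and 2.12 without it. Whether the groups differ in spread was not tested. In SEFA-6179 replicate 3 the summed hepatocyte markers were at 76601 CPM, against 127135 CPM or more in the other SEFA-6179 libraries, and the 4 macrophage markers in the table summed to 567 CPM, the highest of the 11. Single markers did not all follow their sums. ALB, the albumin gene, made up 42121 CPM of the hepatocyte sum in that library, while CPS1, of the urea cycle, was at 1256 CPM there and at 890 and 628 CPM in replicates 1 and 2. CD163 made up 429 CPM of the macrophage sum, and MARCO, at 9.20 CPM, was the second lowest of its group. MCT replicate 3 had a like hepatocyte sum of 73179 CPM, while its CPS1 (2512 CPM) and its ELOVL2 were the highest of all libraries and its ELOVL6 was at 322 CPM. In bulk liver, fewer cells of a type and less RNA per cell cannot be told apart. Divided by the hepatocyte sum of its library, a scaling added after the values were seen, the range with SEFA-6179 went from 13.5-fold to 5.48-fold for FADS2, from 15.3-fold to 8.43-fold for FADS1, from 14.4-fold to 8.71-fold for ELOVL6, from 3.69-fold to 1.72-fold for ELOVL2 and from 2.37-fold to 1.67-fold for ELOVL5. For SCD it went from 27.0-fold to 42.5-fold and for ELOVL1 from 1.37-fold to 3.24-fold. With MCT it went from 32.7-fold to 12.3-fold for SCD, from 6.62-fold to 2.48-fold for FADS1 and from 4.26-fold to 2.06-fold for FADS2. It widened with MCT from 4.26-fold to 8.49-fold for ELOVL2 and from 2.46-fold to 3.10-fold for ELOVL6. The same held for ELOVL5 (1.82-fold to 2.02-fold) and ELOVL1 (1.60-fold to 2.22-fold). The part of cell makeup in these ranges was not tested.

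**Figure D3:**
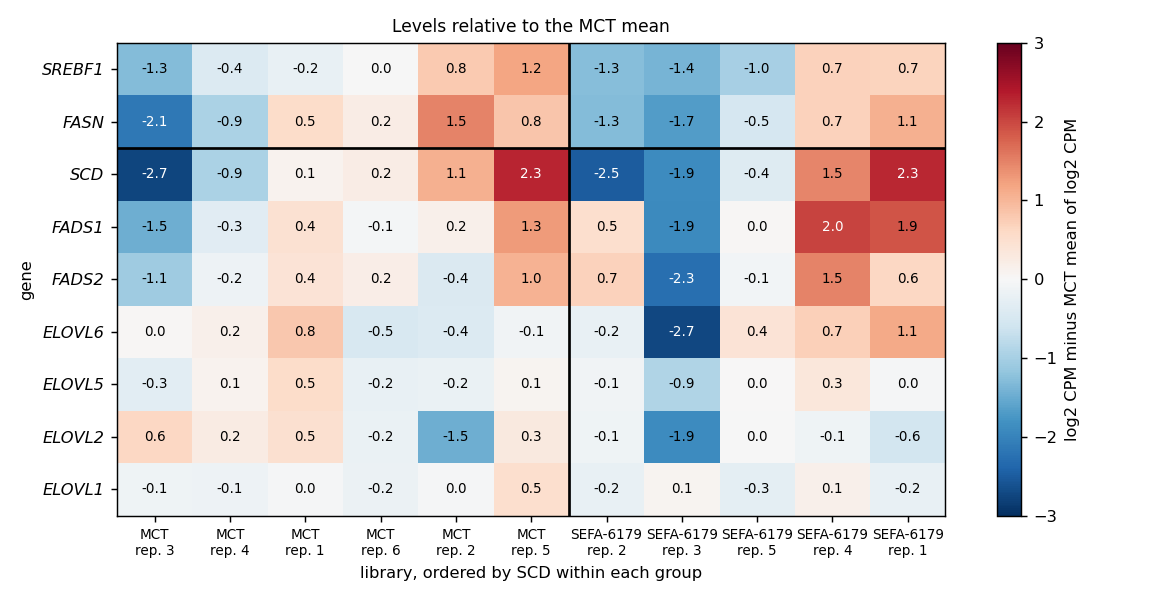
Log2 CPM of each gene minus the mean log2 CPM of the MCT libraries, with 1 column per library, ordered by SCD within each group, and SREBF1 and FASN in the top rows. SREBF1 and FASN are low at the left of each group and higher at the right, though not in the exact order of SCD (FASN peaks in MCT replicate 2), and SEFA-6179 replicate 3 is low for every row but ELOVL1.

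Set against each other, the branches overlapped between the treatments. The polyunsaturated score was the mean log2 CPM of FADS1, FADS2, ELOVL2 and ELOVL5, and the saturated and monounsaturated score that of SCD, ELOVL6 and ELOVL1, each counted from its MCT mean. With SEFA-6179 the polyunsaturated score minus the other was -0.58, 1.22, -0.23, 0.16 and 0.087 on the log2 scale in replicates 1 to 5, and with MCT it ran from -0.69 to 0.39. The mean was 0.13 ± 0.67 (SD, n = 5) with SEFA-6179 against 0 ± 0.40 (SD, n = 6) with MCT by construction. No p is given for a score over chosen genes. The polyunsaturated score averages genes of both directions, none of which passed. Their log2 fold changes by edgeR were 0.85 for FADS1, 0.36 for FADS2, -0.12 for ELOVL5 and -0.55 for ELOVL2. SEFA-6179 replicate 2 stood out with 1.22: its SCD was the lowest of its group, at 53.5 CPM, while its FADS2 was at 786 CPM. With 1 library left out the mean difference ran from -0.14 to 0.31. Dropping SEFA-6179 replicate 2 gave -0.14, MCT replicate 2 gave -0.0087, and SEFA-6179 replicate 1 gave 0.31.

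**Figure D4:**
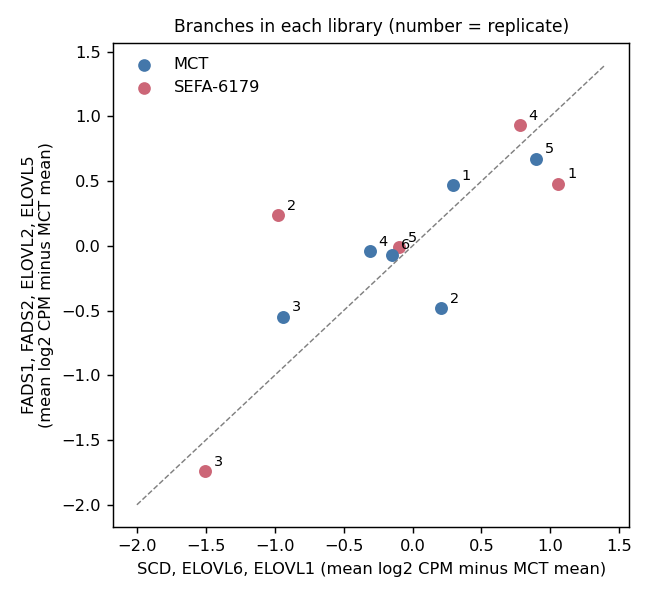
Mean log2 CPM of the 4 polyunsaturated-branch genes (vertical) and of the 3 saturated and monounsaturated-branch genes (horizontal) in each library, both minus the MCT mean, with the dashed line marking equal shifts. SEFA-6179 replicate 2 lies farthest above the line (1.22) and MCT replicate 2 farthest below it (-0.69).

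Ratios within a library showed how far the genes moved apart. The FPKM of FADS1 relative to FADS2 ran from 0.952 to 1.89 with MCT and from 1.11 to 3.06 with SEFA-6179, whereas that of SCD relative to FADS2 ran from 0.197 to 1.80 and from 0.0700 to 1.99. The FPKM of SCD relative to ELOVL6, its supplier of stearate, ranged from 0.170 in MCT replicate 3 to 6.13 in MCT replicate 5. ELOVL2 relative to ELOVL5 was between 0.413 and 1.89 with MCT and between 0.496 and 0.972 with SEFA-6179. The groups overlapped for each of these ratios.

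Across the 11 livers FADS1 and FADS2 rose and fell together. Of the 21 pairs among the 7 genes, 5 correlated in log2 CPM by Pearson's r at an adjusted p below 0.05 (two-sided permutation test, Benjamini-Hochberg over the 21 pairs) and 1 by Spearman's rho. For FADS1 and FADS2 r was 0.922 (permutation p = 7e-05, adjusted p = 0.00147) and rho was 0.909 (permutation p = 0.0003, adjusted p = 0.0063). It was 0.855 without the 2 libraries farthest from the FADS1 median, SEFA-6179 replicates 3 and 4, at least 0.898 with any 1 library left out, and 0.923 within MCT (exact permutation p = 0.0181, n = 6, adjusted p = 0.190 over 21 pairs). The pair passed in each of the 11 tests that left out 1 library.

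SCD, too, correlated with FADS1. For SCD and FADS1 r was 0.786 (permutation p = 0.0042, adjusted p = 0.0236) and rho 0.709 (permutation p = 0.0179, adjusted p = 0.125). With each library dropped in turn r ran from 0.725 to 0.916, and the pair passed in 7 of 11 cases. It was 0.904 without SEFA-6179 replicate 2 and MCT replicate 3, the libraries farthest from the SCD median, and 0.954 within MCT (exact permutation p = 0.00972, n = 6, adjusted p = 0.190). For SCD and FADS2 r was 0.606 (permutation p = 0.0442, adjusted p = 0.0928; rho 0.591, permutation p = 0.0603). For SCD and ELOVL6 r was 0.443 (permutation p = 0.173, adjusted p = 0.280; rho 0.300, permutation p = 0.371) and, within MCT, -0.238 (exact permutation p = 0.643, n = 6). Whether the correlations of SCD with FADS1 and with ELOVL6 differ was not tested.

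Among the elongases, ELOVL5 and ELOVL6 correlated with r of 0.855 (permutation p = 0.00255, adjusted p = 0.0236; rho 0.727, permutation p = 0.0142, adjusted p = 0.125), which was 0.552 without SEFA-6179 replicate 3 and MCT replicate 1. FADS2 and ELOVL5 had r of 0.805 (permutation p = 0.0045, adjusted p = 0.0236; rho 0.636, permutation p = 0.0401) and FADS1 and ELOVL6 0.711 (permutation p = 0.00993, adjusted p = 0.0417; rho 0.545, permutation p = 0.0890). Without SEFA-6179 replicates 3 and 4 these were 0.441 and 0.424. Leaving out the libraries farthest from the median can by itself lower r, so how far these relations rested on them was not settled. With 1 library dropped r was at least 0.636 (ELOVL5 and ELOVL6), 0.571 (FADS2 and ELOVL5) and 0.513 (FADS1 and ELOVL6). The pairs passed in 9, 8 and 7 of 11 cases. Within MCT (n = 6) r was 0.847 (exact permutation p = 0.0375, adjusted p = 0.255), 0.575 (exact permutation p = 0.237) and 0.041 (exact permutation p = 0.943). Without SEFA-6179 replicate 3 or without replicate 4 alone, 1 of the 21 pairs passed. ELOVL1 and ELOVL2 were in none of the 5 pairs. With ELOVL2 the r of SCD was -0.046 (permutation p = 0.893).

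**Figure D5:**
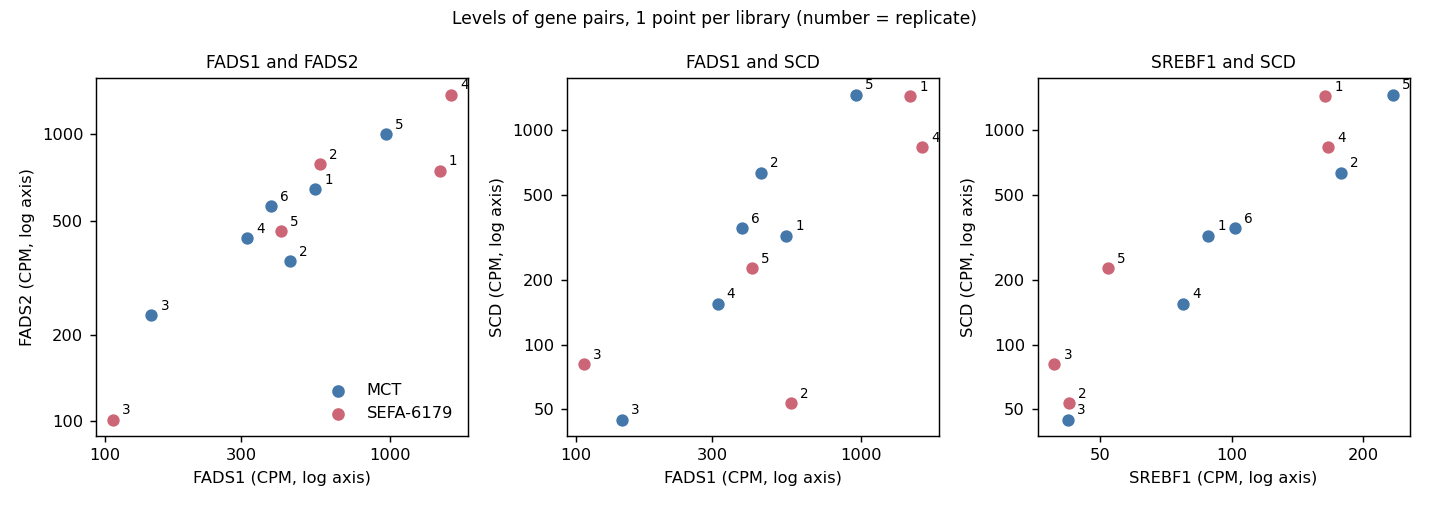
Levels of FADS1 and FADS2, FADS1 and SCD, and SREBF1 and SCD, in TMM-scaled CPM on log axes, with 1 point per library and its replicate number (MCT blue, SEFA-6179 red). SEFA-6179 replicate 2 lies off the relation of FADS1 with SCD (53.5 CPM of SCD) and on that of SREBF1 with SCD.

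Of 11153 other tested genes with a symbol and a mean of at least 1 CPM, those most like SCD over the 11 libraries were SREBF1 (Pearson r = 0.947), which encodes SREBP-1, and FASN (0.929), the fatty acid synthase. Next was QPCT (0.893), a glutaminyl cyclase, at no more than 3.86 CPM. Likeness here is a description of these libraries, ranked over many genes, with no p. SREBF1 was at 164, 42.4, 39.3, 166 and 52.1 CPM in SEFA-6179 replicates 1 to 5, and from 42.2 CPM in replicate 3 to 233 CPM in replicate 5 with MCT. The lowest SCD libraries of both groups were among the lowest for SREBF1. SREBF1 was among the 3 genes most like SCD in each of 11 repeats that left out 1 library, FASN in 9, and with the group means subtracted SREBF1 ranked 1 with r of 0.965. Neither SREBF1 nor FASN passed the test between the groups, with log2 fold changes of -0.37 ± 0.52 (SE) and -0.37 ± 0.65 (SE) (edgeR adjusted p = 0.849 and 0.881).

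The genes most like FADS1 were others. LSS, the lanosterol synthase of cholesterol synthesis, had the highest r (0.941), then GPI, the glucose-6-phosphate isomerase of glycolysis (0.930), and GNG7, a G protein gamma subunit (0.922). FADS2 itself ranked 4 for FADS1. For FADS2 the closest were C1orf115 (0.929), FADS1 (0.922) and PCYT2 (0.893), an enzyme of phosphatidylethanolamine synthesis. LSS was among the 3 closest to FADS1 in 10 of 11 repeats that left out 1 library, C1orf115 among the 3 closest to FADS2 in 10, and PCYT2 in 1.

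Genes around these reactions, among them regulators and genes that use the products, gave no call by edgeR either. Over 6 lists with 59 genes, of which 52 were tested, edgeR called 0, beside 0.219% of all tested genes, and 7 had an unadjusted p below 0.05, beside 10.8% of all. DESeq2 called 2 (2.06% of all) and limma 0 (0.454%). Such small counts are near these shares. The elongation cycle and its electron supply covers the reductase and dehydratase steps that follow each elongase, and cytochrome b5, which feeds electrons to desaturases. In this list 8 of 9 tested genes were above 0 in log2 fold change, the median being 0.18, beside -0.0015 over all tested genes. CYB5R3, cytochrome b5 reductase, was at 122 ± 51.4 CPM (SD, n = 5) after SEFA-6179, beside 85.0 ± 25.8 CPM (SD, n = 6) in the controls (edgeR adjusted p = 0.508). HSD17B12, the 3-ketoacyl-CoA reductase of the cycle, was at 68.8 ± 7.15 and 59.4 ± 8.96 CPM (edgeR adjusted p = 0.606), and CYB5B, the outer mitochondrial cytochrome b5, at 28.1 ± 4.93 and 24.0 ± 4.41 CPM (edgeR adjusted p = 0.645). CYB5A, the cytochrome b5 of the endoplasmic reticulum, was abundant, at 961 ± 154 and 849 ± 108 CPM.

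Of the other desaturases and elongases 5 of 8 were tested, 2 of them above 0, with a median of -0.15. FADS3 was at 1.81 ± 0.569 CPM (SD, n = 5) against 0.972 ± 0.721 CPM (SD, n = 6), DEGS2 at 0.447 ± 0.135 against 0.779 ± 0.342 CPM and DEGS1, the dihydroceramide desaturase, at 37.3 ± 5.30 against 41.3 ± 7.97 CPM (edgeR adjusted p of 0.583, 0.535 and 0.778). SCD5 was low in both groups, at 0.595 ± 0.305 and 0.728 ± 0.483 CPM.

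Genes that supply saturated fatty acids were above 0 in 3 of 8 tested cases, with a median of -0.21. SLC25A1, the mitochondrial citrate carrier, had the lowest p, at 165, 158, 58.7, 225 and 143 CPM in SEFA-6179 replicates 1 to 5 and 68.5 to 131 CPM with MCT. In 4 of 5 SEFA-6179 libraries it lay above every MCT library, and in replicate 3 below every one (log2 fold change 0.67 ± 0.27 SE, edgeR adjusted p = 0.375). ACLY, which splits citrate to acetyl-CoA, was at 41.9 ± 5.85 against 49.9 ± 16.9 CPM (edgeR adjusted p = 0.687), and ACSS2, the cytosolic acetyl-CoA synthetase, at 58.8 ± 41.5 against 39.1 ± 20.5 CPM (edgeR adjusted p = 0.726).

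Among the regulators 8 of 11 tested genes were above 0, with a median of 0.29. INSIG1, which holds SREBP precursors in the endoplasmic reticulum, was at 584, 335, 306, 394 and 452 CPM in SEFA-6179 replicates 1 to 5, and at 204 to 339 CPM with MCT. In 3 of 5 SEFA-6179 libraries it was above every MCT library (log2 fold change 0.65 ± 0.20 SE, unadjusted p = 0.00609, edgeR adjusted p = 0.232). INSIG2 was at 60.7 ± 14.2 against 44.9 ± 8.97 CPM and MLX, the partner of the carbohydrate response factor MLXIPL, at 45.9 ± 6.06 against 37.5 ± 4.06 CPM (edgeR adjusted p of 0.411 for both).

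Of 14 genes that use the products, all tested, 10 were above 0, with a median of 0.13, and the lowest p-values belonged to genes below 0. MBOAT7, which places arachidonate into phosphatidylinositol, was at 33.0, 32.1, 28.6, 33.0 and 28.6 CPM in SEFA-6179 replicates 1 to 5. With MCT it ran from 32.8 to 70.4 CPM, and only MCT replicate 3 overlapped the SEFA-6179 range. ACSL4, an acyl-CoA synthetase with a preference for arachidonate, was at 73.1 ± 27.8 CPM (SD, n = 5) against 198 ± 147 CPM (SD, n = 6), with 478 CPM in MCT replicate 2. Their edgeR adjusted p were 0.150 and 0.268, while DESeq2 called both lower (adjusted p = 0.0319 and 0.0280). Over the alternatives the adjusted p ran from 0.0319 to 0.357 for MBOAT7 and from 0.0280 to 0.482 for ACSL4. AGPAT2, of glycerolipid synthesis, measured 149 ± 21.4 CPM, beside 131 ± 23.2 CPM with MCT (edgeR adjusted p = 0.729).

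The peroxisomal chain shortening that ends DHA synthesis was represented by 5 tested genes of 6, of which 4 were above 0, with a median of 0.30. HSD17B4, the D-bifunctional protein, was at 553 ± 120 CPM (SD, n = 5) against 391 ± 54.2 CPM (SD, n = 6). ACAA1, the peroxisomal thiolase, was at 652 ± 170 against 529 ± 98.1 CPM. Their edgeR adjusted p were 0.307 and 0.645.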

How the data were processed

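Per the file headers, the authors deposited raw counts of reads in genes and FPKM values of the same libraries. The deposited normalized signal was, in each library, proportional to its count. The authors' comparison is deposited as log2 fold changes with their p-value columns. The submitters' processing notes name featureCounts 1.5.0-p3, DESeq2 1.20.0, HISAT2 2.0.5 and StringTie 1.3.3b, with no role given.

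Counts were tested with edgeR 4.0.16 (filterByExpr, TMM, robust quasi-likelihood, two-sided) on all 11 libraries in R 4.3.3. The F statistic and the fitted fold change gave standard errors and 95% intervals. Levels are CPM after TMM scaling, and log2 CPM uses a prior count of 2. Between genes, levels were compared in FPKM. Permutation tests of correlations drew 100000 resamples (Python 3.11.15, numpy 2.4.6), and correlations within MCT were enumerated exactly. Genes named are the 7 members, per list those past the threshold or else the 3 with the smallest p, and the 3 most correlated with each member. One gene that this rule names is not reported here. CYB5A, SCD5, FADS6, the marker CIDEC and the group tests of SREBF1 and FASN were picked after their values were seen. Members, lists and tests were chosen with earlier results of these data known. Alternatives were DESeq2 1.42.0 (size factors, Wald test), limma 3.58.1 with library weights, other low-count filters, a replicate block, libraries left out and, for the branch difference, log2 FPKM with a pseudocount of 1 or 0.1. Scripts were tested on simulated data. Every pair of libraries differed by more than sampling noise (chi-square per degree of freedom at least 41.9).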

Additional observations from a re-analysis of the deposited data

Results flagged for a closer look

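In 52 groups of libraries (the genes named by list or membership, and the branch difference, in each treatment), 5 held a value standing apart, judged by its gap to the next library over the range of the group. Chance flags about 1 in 20, or 2.6. ELOVL1 was at 54.9 CPM in MCT replicate 5, whereas the others of that group lay at 34.2 to 37.7 CPM. ACLY was at 83.6 CPM in the same library, against 36.4 to 46.7 CPM. In SEFA-6179 replicate 4 CYB5B was at 36.7 CPM, against 24.2 to 27.0 CPM in the other SEFA-6179 libraries, and MLX was at 56.6 CPM, against 42.4 to 44.6 CPM. INSIG2 was at 35.7 CPM in SEFA-6179 replicate 3, against 64.2 to 70.6 CPM.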

How the results depend on the processing

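None of the 7 genes passed under any of the 18 alternatives, and FADS1 and ELOVL2 kept their direction in all of them. ELOVL6 turned to -0.067 with limma and library weights and to -0.13 with the replicate block, where FADS1 was 0.49. The fit with the replicate block also left out MCT replicate 6, which has no same-numbered SEFA-6179 library, so its results are not those of the block alone. Leaving out each library in turn gave log2 fold changes from 0.47 to 1.196 for FADS1, -0.73 to -0.33 for ELOVL2, -0.73 to 0.81 for SCD, -0.038 to 0.64 for FADS2, -0.17 to 0.0080 for ELOVL1, -0.24 to 0.031 for ELOVL5 and -0.085 to 0.52 for ELOVL6. The number of called genes over the whole table was 30, against 276 with DESeq2, 62 with limma, 8 with the replicate block and 1 when MCT replicate 5 was left out together with SEFA-6179 replicate 4. With a single library left out it was 0 to 53. SEFA-6179 replicates 1, 3 and 5, left out singly, gave 9, 53 and 0. MCT replicates 1 to 4 gave 1, 9, 16 and 0. In the fits with 0 calls by edgeR (SEFA-6179 replicate 5, then MCT replicate 4) 1184 and 1258 genes had an unadjusted p below 0.05. Of the genes that use the products DESeq2 called 2. The number of correlated pairs, 5, was 1 by Spearman's rho, 1 when that same pair of libraries was absent, and 1 to 7 with 1 library left out (1 for SEFA-6179 replicate 3 and 1 for replicate 4), and 7 with DESeq2 size factors or with group means subtracted. The causes were not tested. Same-numbered libraries are not said to be paired, and 1 of 5 same-numbered pairs correlated above 0.1 in deviations from the group means (-0.15 to 0.20), so the replicate block is only a shared number. In 1 of 5 cases a SEFA-6179 library correlated best with its own number. The hepatocyte scaling, the repeats of likeness and the spread without SEFA-6179 replicate 3 were added after the data were seen.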

Other observations

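The genes most like the elongases were of mixed kinds. For ELOVL1 they were AARS1, an aminoacyl-tRNA synthetase (r = 0.943), PPP4C, a phosphatase catalytic subunit (0.931), and ZMAT5 (0.927). With 1 library left out the r of ZMAT5 was as low as 0.775. For ELOVL2 they were GPBAR1, a bile acid receptor at 1.86 to 4.35 CPM (0.869), GATB (0.858) and F3, tissue factor (0.854). ELOVL5 was closest to MEIOB (0.890), MYO18A (0.885) and GSTA1, a glutathione transferase (0.869). ELOVL6 was closest to UTP25 (0.884), AGBL2 (0.880) and RELN (0.864), whose r dropped to as little as 0.762, 0.601 and 0.573 with 1 library left out. These are descriptions over 11 libraries with no p.

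CIDEC, a lipid droplet protein fixed here as an adipocyte marker and known to be made by fatty livers as well, was at 33.5 and 28.0 CPM in SEFA-6179 replicates 1 and 4 and at 33.8 CPM in MCT replicate 5, the 3 libraries highest in SCD. It was at 6.88 to 17.0 CPM in the other 8, and the lowest of these was MCT replicate 2, the library next in SCD (633 CPM). ADIPOQ, the defining adipocyte hormone, was at 0 in 8 libraries and at most 0.246 CPM, and PLIN1 was at 1.76 to 5.90 CPM. FADS6, a desaturase-family gene without a settled substrate, was measured at 119 ± 47.3 CPM (SD, n = 5) after SEFA-6179 and 111 ± 46.1 CPM (SD, n = 6) in the controls.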
